A study of Nothobranchius furzeri with 20 samples.

Results

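Livers of turquoise killifish labelled as exercised at 27 weeks, taken from the libraries whose titles carry the numbers JM140 to JM144, were set against livers of unexercised fish at 9 weeks, titles JM124 to JM128. The 10 libraries, 5 in each group, are 10 of the 20 in the series, and each is called here by its title number. They were chosen by age, exercise label and title number. No measured value enters that rule, although earlier results of these data were known when the comparison was chosen. All fish were males of the Nothobranchius furzeri strain MZM-04/10p, and the 27-week group bears the swim-tunnel label while the 9-week group had no perturbation. By the labels, age and exercise therefore both differ between the groups and cannot be told apart. The other 10 libraries are a second run of 27-week swim-tunnel livers, titles JM132 to JM136, and swim-tunnel livers at 9 weeks, titles JM117 to JM121. Both runs at 27 weeks bear the same labels although their livers differ, as values beside the results show. The exercise of either run rests on the label alone, and the cause of their difference was not tested. The labels name no batch, day or separate fish, and the title runs follow the groups, so the p-values rest on library-to-library spread, which may be technical, and a batch that follows the titles cannot be told apart from the groups.

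The turquoise killifish is an annual fish of seasonal ponds with one of the shortest lives among laboratory vertebrates, and it is used as a model of ageing. A swim tunnel makes fish swim against a current, as a form of endurance training. The liver makes most plasma proteins, stores and releases sugar and fat and clears foreign compounds, and a small number of secretory transcripts therefore takes up a large part of its messenger RNA. In teleosts, exocrine pancreas can lie close to or within the liver. The files give gene identifiers without names, and of 26739 such identifiers 0 were found in the RefSeq gene table (assembly NfurGRZ-RIMD1), so genes are given by identifier, no pathway or marker list could be counted and the tissue label could not be set against markers. In bulk tissue, fewer cells of a type and less RNA per cell cannot be told apart.

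Libraries held 24.8 to 34.9 M counts in the 27-week group and from 22.4 to 38.4 M in the unexercised group (M, mega) in all, and between 19785 and 20429 genes had a count. Between libraries of the 27-week group, correlations of log2 CPM (counts per M counts) were 0.959 to 0.964. They were 0.943 to 0.971 between unexercised libraries and 0.923 to 0.952 across the groups. By gene, the median standard deviation of log2 CPM was 0.301 in the 27-week group and 0.28 in the unexercised group. It was larger in the 27-week group for 53.7% of the tested genes. The first principal component of the 10 libraries, with 31.8% of the variance, separated the groups without overlap, from 19.8 to 54.2 in the 27-week group and from -45.4 to -20.1 in the unexercised group. On the second component (14.4%) the unexercised libraries spread from -51.1 to 41.5, with library JM127 at the low end, and the 27-week libraries from -18.3 to 27.7.

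A small set of transcripts took a larger part of the messenger RNA in the 27-week titles JM140 to JM144. The 10 most abundant genes of each library held 24.9%, 24.6%, 24.7%, 25.1% and 24.3% of the counts in libraries JM140 to JM144, against 18.7%, 17.8%, 18.2%, 22.8% and 16.0% in the unexercised libraries JM124 to JM128. Every 27-week library lay above every unexercised library, and the unexercised group was the more scattered of the compared groups in this share. The mean difference was 6.02 percentage points, with an exact permutation p of 0.0079 (two-sided), the smallest that 5 against 5 allows, and an adjusted p of 0.04 over 5 library measures. With any single library other than JM127 left out the exact permutation test missed the threshold, at an adjusted p of 0.079 from the smallest p of 0.016 that 5 against 4 allows, and the difference stayed between 5.35 and 7.05 points in all 10 cases. The other 27-week run, titles JM132 to JM136, held 17.6% to 24.5% in its 10 most abundant genes and so overlapped both groups. Of the 10 genes with the highest mean CPM in each compared group 9 were the same, as were 90 of the first 100 and 891 of the first 1000.

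The 100 most abundant genes of each library showed a smaller separation, with 52.6% to 53.9% of the counts in the 27-week group and 44.5% to 53.6% in the unexercised group (exact permutation p = 0.032, adjusted p = 0.053). Library JM127 alone, at 53.6%, reached the 27-week range. The titles JM132 to JM136 held 45.5% ± 5.45 (SD, n = 5), each library below every library of the titles JM140 to JM144. The TMM (trimmed mean of M values) scaling factor followed the same pattern, at 0.875 to 0.936 in the 27-week group and 0.918 to 1.27 in the unexercised group (exact permutation p = 0.024, adjusted p = 0.053), and 0.918 was again library JM127. Without library JM127 both measures passed, each with an exact permutation test adjusted p of 0.026. Total counts and detected genes did not pass the exact permutation test (adjusted p = 0.78 each).

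**Figure D1:**
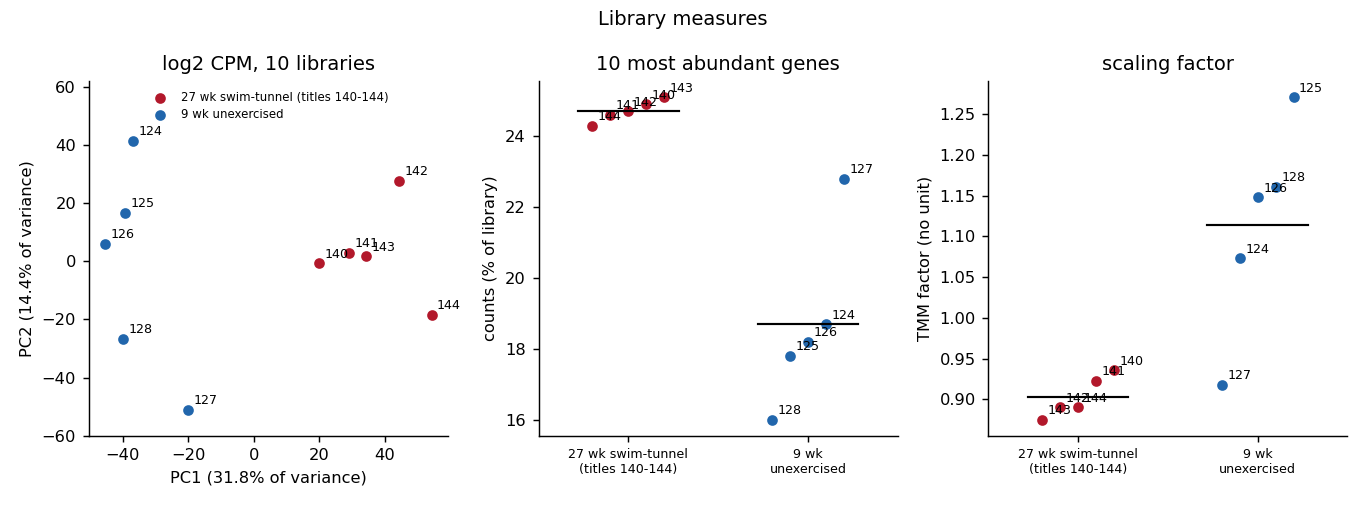
Principal components of log2 CPM (left, no unit), the percentage of counts held by the 10 top genes of each library (centre) and the TMM factor (right, no unit) for the 5 27-week libraries (red) and the 5 unexercised 9-week libraries (blue), each point labelled with its title number and lines at group means. The 27-week libraries sit together at 24.3% to 25.1% for the top genes, and library JM127 lies nearest to them among the unexercised libraries in both right panels.

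Between the groups 2360 of 15983 genes changed, 14.8% of those tested, with 1200 higher (7.51%) and 1160 lower (7.26%) in the 27-week livers (edgeR quasi-likelihood test, adjusted p under 0.05). Most changes were small. The median fold among genes that rose was 1.76, with the middle of the list between 0.57 and 1.31 on the log2 scale, and among genes that fell it was 1.72, between 0.58 and 1.17. More than 2-fold changes were found in 471 of the genes that rose and in 388 of those that fell, and more than 8-fold changes in 16 and 8. The median standard error was 0.19 for the genes that rose and 0.18 for those that fell on the log2 scale. A test against a fold of 1.5 kept 164 genes, 120 higher and 44 lower. The number called depended on single libraries: it was 1505, 1468 and 1288 without the 27-week libraries JM142, JM143 and JM144, and 1565, 1155 and 1545 without the unexercised libraries JM125, JM126 and JM128. In all 10 fits that leave out 1 library the same 1010 genes were called in the same direction, 528 of them higher.

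**Figure D2:**
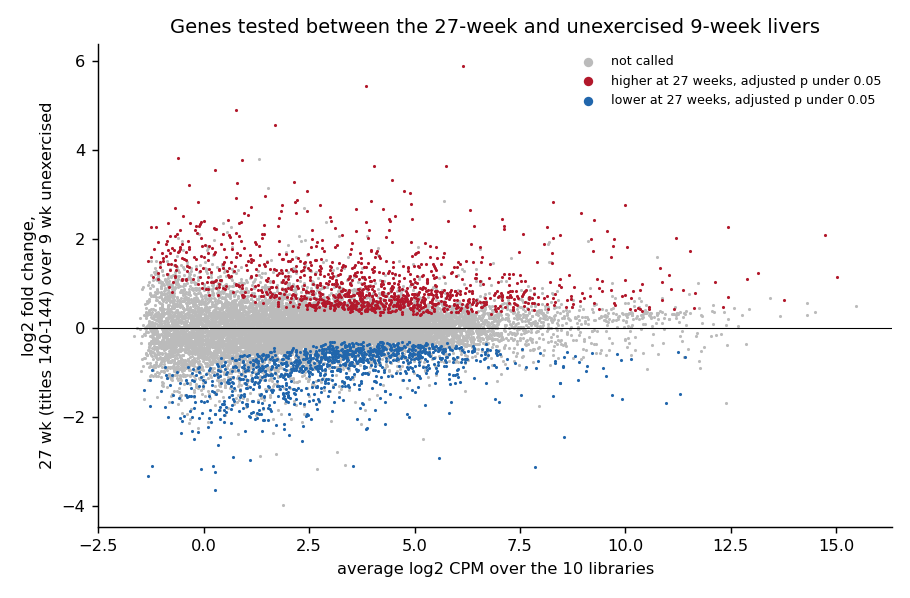
Log2 fold change of the 27-week over the unexercised 9-week livers against average log2 CPM for the 15983 genes tested, each point a gene, with genes called at adjusted p under 0.05 in red (1200 higher) and blue (1160 lower). Called genes towards the right of the abundance axis are mostly red, and the largest rise reaches 5.88.

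Complete separation of the libraries was also common. In 1828 genes, 11.4% of those tested, the CPM ranges of the groups did not overlap, with 910 entirely higher (5.69%) and 918 entirely lower (5.74%) in the 27-week group. Among the called genes, 773 of the 1200 that rose and 763 of the 1160 that fell were separated in this way. Another 292 separated genes did not pass the test. No gene among those tested was at 0 counts in all 5 libraries of either group, so no called gene was seen in 1 group alone. The filter on low counts removes genes that are low in both groups.

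The balance of rises and falls depended on the scaling. Scaling by library totals in place of TMM gave 490 genes higher (3.07%) and 3766 lower (23.6%), so that 11.5% of the called genes were higher instead of 50.8%. The median log2 fold change over all tested genes was -0.02 with TMM and -0.32 with library totals. A larger share of counts in a few transcripts leaves a smaller share for the other genes together, but how much of the shift in the median this gives was not tested. The counts alone do not say which scaling reflects RNA per cell. Of the TMM calls, 1647 kept their direction and their call with library totals.

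At the median, abundant liver transcripts had higher fold changes than all tested genes. Of the 100 genes with the highest mean CPM over the 10 libraries, all above 1710 CPM, 20 rose and 4 fell with TMM, and 15 rose and 8 fell with library totals. Over all tested genes 7.51% rose and 7.26% fell with TMM, and 3.07% rose and 23.6% fell with library totals. Their median log2 fold change was 0.31 with TMM and 0.03 with library totals. Relative to the median of all genes this was 0.33 with TMM and 0.35 with library totals. A change of scaling shifts all genes by nearly the same amount, -0.3 at the median, so these values are alike by construction. With TMM 76 of the 100 had a positive fold change, and 18 lay entirely above and 4 entirely below the unexercised range. Among all tested genes 5.69% lay entirely above and 5.74% entirely below it. Single genes of the list differed widely, from -1.70 to 2.27 on the log2 scale, with 11 rises and 2 falls of more than 2-fold.

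With TMM, the share of rises grew with abundance. Of the 180 genes with a mean of 1000 CPM or more 19.4% rose and 2.78% fell, and of the 721 genes between 100 and 1000 CPM 17.9% rose and 7.21% fell. Among the 5960 genes of 10 to 100 CPM the shares were 9.56% and 7.90%, and among the 7186 genes of 1 to 10 CPM 5.27% rose and 7.96% fell. The 1936 tested genes under 1 CPM had 4.49% risen and 3.10% fallen. With library totals falls outnumbered rises in each class except the highest, where 11.1% rose and 8.33% fell. The share of rises was then 3.0% under 1 CPM, 2.23% at 1 to 10 CPM, 3.26% at 10 to 100 CPM and 8.04% at 100 to 1000 CPM. The median standard error was 0.38 and 0.22 in the 2 lowest classes, against 0.15 to 0.17 in the others, so changes there were harder to call. The median fold change followed the same order in both scalings, from -0.07 at 1 to 10 CPM to 0.31 at 1000 CPM or more with TMM, and from -0.37 to 0.01 with library totals. The shared order follows from the nearly uniform shift between the scalings.

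**Figure D3:**
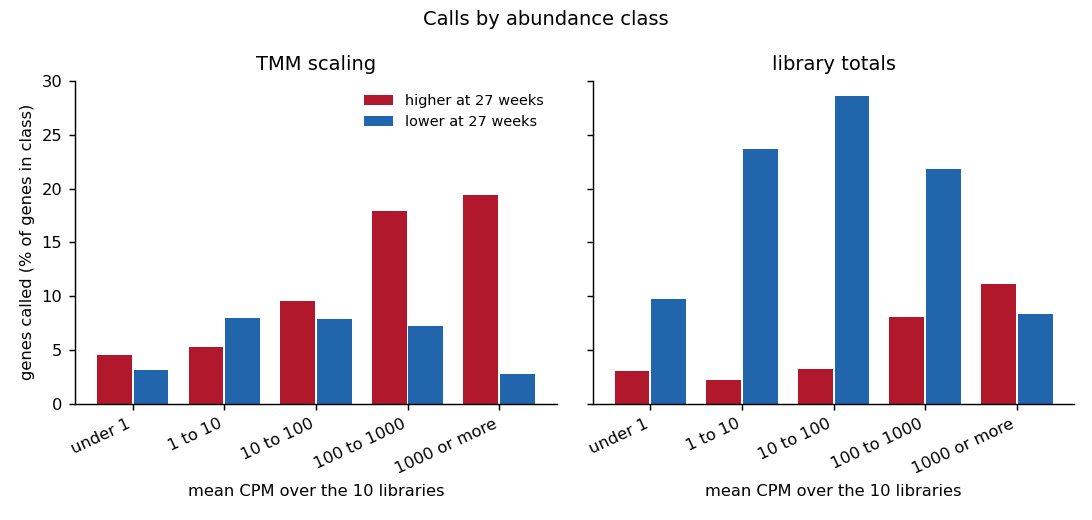
Share of genes called higher (red) or lower (blue) in the 27-week livers, in percent of the tested genes of each class of mean CPM, with TMM scaling (left) and library totals (right). Rises are most frequent among genes of 1000 CPM or more in both panels, at 19.4% and 11.1%, and falls outnumber rises in every class below 1000 CPM only with library totals.

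The genes that rose took up 25.9%, 27.3%, 25.9%, 25.3% and 26.8% of the counts over tested genes in the 27-week libraries, against 16.8%, 15.1%, 15.0%, 14.4% and 13.9% in the unexercised libraries. The gain of 11.2 percentage points was concentrated in few transcripts: 4 genes gave 50% of it and 78 genes 90%. The largest part, 2.83 points, came from Nfu_g_1_005996, which the naming rule used below did not select. Genes that fell held 2.49% to 2.96% in the 27-week group and 5.02% to 6.66% in the unexercised group, a loss of 3.44 points spread over more genes, with 19 giving 50% and 376 giving 90%. These shares are a description, since the genes were called on the same libraries. Per length, in RPKM recomputed from the counts, the genes that rose had a median level of 7.43, those that fell 3.06 and all tested genes 3.52.

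With TMM, genes that fell were longer than genes that rose. The implied length had a median of 2519 bases in genes that rose, 3191 bases in genes that fell and 2609 bases in all tested genes, and was available for 92.8%, 94.1% and 89.7% of them. Below 1000 bases 8.71% of 2573 genes rose and 5.21% fell, at 1000 to 2000 bases 7.41% rose and 6.95% fell, at 2000 to 4000 bases 8.45% rose and 7.15% fell, and at 4000 bases or more 6.82% of 4385 genes rose and 9.97% fell. The share of falls was thus larger in longer classes, while the share of rises followed no order. With library totals falls outnumbered rises in every length class, with 3.30% risen and 17.7% fallen below 1000 bases and 2.76% risen and 32.2% fallen at 4000 bases or more. The median log2 fold change was 0.03 in the shortest class and -0.07 in the longest with TMM, with median levels of 4.33 and 15.3 CPM. A difference in RNA quality between the groups was not tested.

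The naming rule admits only called genes whose groups do not overlap, so the separation of the named genes was set by their choice. Each contrast of these genes with the other groups uses libraries of that choice again. Its value can be shifted by the choice, and its p-value is not independent of it. The largest rise that met the rule was that of Nfu_g_1_002009. It had 137, 214, 231, 104 and 50.5 CPM in the 27-week libraries JM140 to JM144, against 4.04, 3.70, 2.49, 1.81 and 0.54 CPM in the unexercised libraries JM124 to JM128. All 27-week libraries stood more than 8-fold above the highest unexercised library. The rise was 5.88 ± 0.60 on the log2 scale (SE, n = 5 each, edgeR adjusted p = 0.00068). In the libraries outside this comparison it had 23.2 to 364 CPM in the 27-week titles JM132 to JM136 (mean 183, n = 5) and 1.05 to 47.1 CPM in the swim-tunnel livers at 9 weeks (mean 15.5, n = 5), which reached into the unexercised range. In a fit of all 20 libraries it was higher in the 27-week titles JM140 to JM144 than in the swim-tunnel livers at 9 weeks by 3.25 ± 0.82 on the log2 scale (SE, edgeR adjusted p = 0.010), and the swim-tunnel livers at 9 weeks were above the unexercised ones by 2.63 ± 0.82 (edgeR adjusted p = 0.062).

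The most abundant gene that rose and met the naming rule was Nfu_g_1_015843, which ranked 2 by mean CPM over the 10 libraries. Its level was 41300, 61370, 42620, 45360 and 50120 CPM in libraries JM140 to JM144, against 23010, 18970, 20040, 33830 and 13730 CPM in libraries JM124 to JM128. The groups did not overlap, as the naming rule requires, and library JM127 was the highest of the unexercised ones. This transcript held 4.14% ± 0.75 of all counts at 27 weeks and 2.26% ± 0.51 in unexercised livers (SD, n = 5 each). Its rise was 1.14 ± 0.22 on the log2 scale with TMM (SE, edgeR adjusted p = 0.011). With library totals, the scaling that matches these shares, the rise was 0.88 (edgeR adjusted p = 0.0067). The swim-tunnel livers at 9 weeks had 29000 ± 7340 CPM and the 27-week titles JM132 to JM136 had 30300 ± 1940 CPM (SD, n = 5 each). In the fit of all libraries the titles JM140 to JM144 were above the 9-week swim-tunnel livers by 0.73 ± 0.21 (SE, edgeR adjusted p = 0.020) and above the titles JM132 to JM136 by 0.67 ± 0.21 on the log2 scale (SE, edgeR adjusted p = 0.011). The second of these differences depended on the scaling: with library totals it was 0.13 ± 0.17 (SE, edgeR adjusted p = 0.54), and the transcript held 3.61% to 5.40% of the counts in the titles JM140 to JM144 and 3.23% to 4.45% in the titles JM132 to JM136, which overlap.

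Nfu_g_1_002545 had the largest fall that met the naming rule. Its 27-week values were 64.3, 36.8, 34.4, 61.6 and 54.1 CPM, against 168, 190, 349, 1046 and 451 CPM in the unexercised libraries JM124 to JM128. The lowest unexercised library was above the highest 27-week library, as the naming rule requires. The unexercised spread, 441 ± 358 CPM, was much wider than the 50.2 ± 13.9 CPM at 27 weeks when set against its mean (SD, n = 5 each). The change was -3.13 ± 0.49 on the log2 scale (SE, edgeR adjusted p = 0.0044), and it was between -3.34 and -2.52 with any single library left out. The swim-tunnel livers at 9 weeks had 18.6 to 802 CPM (n = 5), and the lowest of them, library JM119, lay below every library of the titles JM140 to JM144. In the fit of all libraries the titles JM140 to JM144 differed from the 9-week swim-tunnel livers by -2.85 ± 0.79 on the log2 scale (SE, edgeR adjusted p = 0.018). At 9 weeks the swim-tunnel and the unexercised livers differed by -0.29 ± 0.74 (SE, edgeR adjusted p = 0.88), and the interval is too wide to show that they were alike.

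The most abundant gene that fell and met the naming rule, Nfu_g_1_023068, ranked 52 by mean CPM. It had 2238, 1658, 2291, 2759 and 2294 CPM in libraries JM140 to JM144, against 4586, 3594, 3294, 2979 and 3204 CPM in libraries JM124 to JM128. The groups were separated by a narrow gap, between library JM143 and library JM127. Its change of -0.65 ± 0.16 on the log2 scale (SE, edgeR adjusted p = 0.025) lost the call without library JM125, JM126, JM142 or JM144, with edgeR adjusted p of 0.051, 0.052, 0.053 and 0.056, while the value itself stayed between -0.73 and -0.53. The swim-tunnel livers at 9 weeks had 3690 ± 654 CPM (SD, n = 5). From these livers the titles JM140 to JM144 differed by -0.71 ± 0.17 on the log2 scale in the fit of all libraries (SE, edgeR adjusted p = 0.0077). The titles JM132 to JM136 had 765 ± 148 CPM (SD, n = 5), and the titles JM140 to JM144 were above them by 1.56 ± 0.17 on the log2 scale (SE, edgeR adjusted p = 1.2e-06), and by 1.04 ± 0.15 with library totals (SE, edgeR adjusted p = 1.2e-05).

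**Figure D4:**
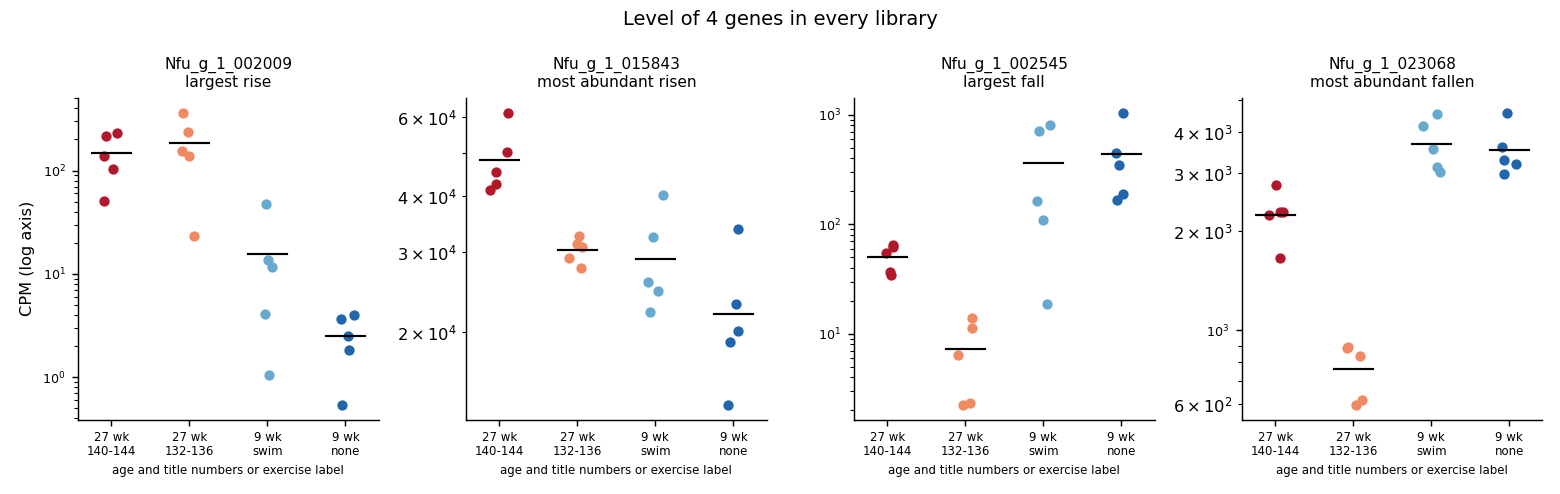
CPM (log axis) of the 4 genes named by the rule in every library of the series, by age and title run at 27 weeks and by exercise label at 9 weeks, each point a library and lines at group means. In each panel the 27-week titles JM140 to JM144 do not overlap the unexercised 9-week libraries, which the naming rule required. For Nfu_g_1_002545 and Nfu_g_1_023068 the titles JM132 to JM136 lie lower still.

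With TMM and averaged over each list, the levels of the called genes in the 2 groups outside the comparison lay between those of the compared groups. Single genes did not all do so. In the titles JM132 to JM136, the mean CPM of Nfu_g_1_002009, Nfu_g_1_002545 and Nfu_g_1_023068 lay outside the means of the compared groups. That of Nfu_g_1_015843 lay between them. Over the genes that rose, the mean log2 CPM was 4.41 ± 0.08 in the 27-week titles JM140 to JM144, 3.98 ± 0.09 in the titles JM132 to JM136, 3.65 ± 0.09 in the swim-tunnel livers at 9 weeks and 3.42 ± 0.08 in the unexercised livers (SD, n = 5 each). Over the genes that fell it was 2.65 ± 0.13, 2.85 ± 0.10, 3.18 ± 0.11 and 3.57 ± 0.09 in the same order. Over all genes it was 2.60 to 2.62 in the 4 groups, but TMM by itself brings such means close together. The genes were chosen for a difference between the first and the last group, which by itself tends to place other libraries between them, so the order is a description and was not tested. It was not computed with library totals, and it can depend on the scaling. That scaling lowered the contrast of the title runs for each named gene, from 0.67 to 0.13 for Nfu_g_1_015843 and from 1.56 to 1.04 for Nfu_g_1_023068.

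**Figure D5:**
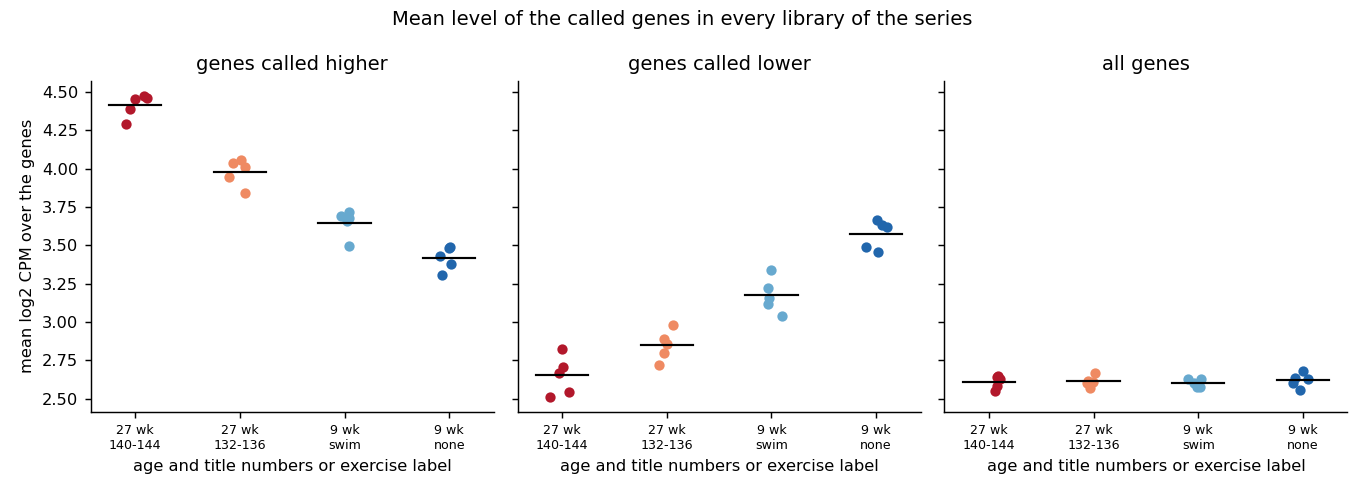
Mean log2 CPM with TMM scaling over the 1200 genes called higher, the 1160 called lower and all genes tested with 20 libraries, in every library of the series, each point a library and lines at group means. The compared groups, at the far left and far right of each panel, define the lists, and the other groups lie between them in the first and second panels.

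A comparison of 27 with 9 weeks that shares no library with this one, of the titles JM132 to JM136 with the swim-tunnel livers at 9 weeks, called 9089 of 16462 genes (55.2%), 31.6% higher and 23.6% lower. Of the 1193 genes that rose in the titles JM140 to JM144 and were tested in both comparisons, 495 (41.5%) also rose there, against 32.1% of all 15831 genes tested in both, and 250 (21.0%) fell there, against 24.2%. Of the 1153 that fell, 464 (40.2%) also fell there, against 24.2% of all genes, and 265 (23.0%) rose, against 32.1%. The shared genes were 9.75% of the rises and 12.1% of the falls in the other comparison. Among the 495 shared rises the median log2 fold change was 0.82 in the titles JM140 to JM144 and 1.49 in the titles JM132 to JM136, and among the 464 shared falls it was -0.73 and -1.08. These overlaps were taken with TMM only. With library totals the median log2 fold change over all genes was -0.32 in the titles JM140 to JM144 against unexercised livers. In the titles JM132 to JM136 against swim-tunnel livers at 9 weeks it was 0.5. The overlap under that scaling was not computed. The comparison of the titles JM132 to JM136 holds the exercise label constant and that of the titles JM140 to JM144 does not, so they differ in more than the title run.

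The difference between these fold changes was tested in a fit of all 20 libraries and passed in 7257 of 17118 genes (42.4%, edgeR adjusted p under 0.05), 3431 with the larger value in the titles JM140 to JM144 and 3826 with the smaller. With library totals it passed in 9276 genes, 1050 with the larger and 8226 with the smaller value, and the median difference over all genes was -0.83, against -0.03 with TMM. It passed in 694 (58.2%) of the genes that rose and 567 (49.2%) of those that fell in the titles JM140 to JM144. These genes were called on the titles JM140 to JM144 against unexercised livers, which is part of the tested difference. That choice by itself raises such shares, so they are a description. The 100 most abundant genes were chosen over the libraries of the main comparison alone. Genes abundant only in the other groups could not enter. That choice by itself can favour lower values in the titles JM132 to JM136, so the counts for these 100 are a description. Of them 70 passed, and all 70 had the larger value in the titles JM140 to JM144. With library totals 51 passed, again all 51 with the larger value there. In the titles JM132 to JM136 against swim-tunnel livers at 9 weeks, 2 of these genes rose and 64 fell, with a median of -0.79, where the titles JM140 to JM144 against unexercised livers had 20 rises, 4 falls and a median of 0.31. With library totals the titles JM132 to JM136 had 7 rises, 54 falls and a median of -0.41, and the titles JM140 to JM144 had 15 rises, 8 falls and a median of 0.03. By gene, the difference was 1.07 ± 0.29 on the log2 scale for Nfu_g_1_015843 (SE, edgeR adjusted p = 0.0061) and 1.62 ± 0.24 for Nfu_g_1_023068 (SE, edgeR adjusted p = 3.6e-05). With library totals it was 0.32 ± 0.24 for Nfu_g_1_015843, which then did not pass (SE, edgeR adjusted p = 0.28), and 0.85 ± 0.21 for Nfu_g_1_023068 (SE, edgeR adjusted p = 0.0025). For Nfu_g_1_002009 and Nfu_g_1_002545 it did not pass under either scaling, at 2.32 ± 1.09 and 2.51 ± 1.06 with TMM (SE, edgeR adjusted p = 0.095 and 0.064).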

How the data were processed

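Liver RNA libraries were made with the TruSeq v2 kit, per the labels' protocols. The authors deposited raw counts per gene identifier, and the submitters' processing notes name STAR 2.4.1d, featureCounts 1.4.6-p4 and bcl2fastq 1.8.4. Build, strandedness and handling of multi-mapping reads: not given in the sources used here. Genes that overlap or have near-identical copies are uncertain for that reason. The authors' RPKM table, also deposited, was treated as a score and used only to derive gene lengths: its values divide the counts by library totals that cycle down the table (implied length CV of at most 0.00475% over 3127 genes, against a median of 24.1% with each library's own total).

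The 10 libraries were fitted alone with edgeR 4.0.16 in R 4.3.3: filterByExpr, TMM, robust quasi-likelihood F-test, two-sided, Benjamini-Hochberg adjustment over all tested genes, threshold 0.05. Each standard error came from the fold change and its F value. A prior count of 2 entered log2 CPM, and CPM of named genes was scaled over all 20 libraries. Exact permutation tests were used for the library measures. Over 20 pairs of libraries within the groups, chi-square divided by its degrees of freedom was at least 41.4, so no pair was a duplicate within counting noise. The naming rule took, among called genes with average log2 CPM of 1 or more and groups that do not overlap, the largest change and the most abundant gene in each direction, from 667 eligible rises and 651 falls. The code was tested on simulated data. The comparison, lists and tests were chosen with earlier results of these data known. Alternatives were other scalings and filters, DESeq2 1.42.0, limma 3.58.1 voom, fits of all libraries, a test against a fold of 1.5 and leaving out each library.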

Additional observations from a re-analysis of the deposited data

How the results depend on the processing

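With upper-quartile scaling, DESeq2 size factors, no filter, a stricter filter (at least 5 libraries with 1 CPM), limma voom, 4 groups in 1 fit of all libraries or without the robust option, the number of called genes stayed within 1.5 times of 2360. It was 4256 with library totals (490 higher, 3766 lower), 3600 with the DESeq2 Wald test (1886 higher) and 164 against a fold of 1.5 (120 higher, 44 lower). With all 10 27-week libraries in 3 labelled groups 1849 genes were higher. The share of higher calls was 47.6% with upper-quartile scaling, 11.5% with library totals, 48.4% without a filter, 54.5% with all 27-week libraries and 73.2% against a fold of 1.5, and it was 50.8% in the fit reported. The median of the 100 most abundant genes was 0.03 with library totals and -0.06 with all 27-week libraries. The cause of these shifts was not tested beyond what each setting changes by construction. Of the calls, 2280 (96.6%) were shared by edgeR, DESeq2 and limma voom, all run on the same 10 libraries. With all 27-week libraries in 3 labelled groups, 1323 (56.1%) were called again in the same direction.

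With single libraries left out, called genes ranged from 1155 to 2515 (higher 582 to 1264, lower 573 to 1252), the share of higher calls from 49.0% to 53.9%, and the median of the abundant genes from 0.28 to 0.37. The difference in the top 10 share ranged from 5.35 to 7.05 points, that of the top 100 share from 4.55 to 6.82 points, and that of the TMM factor from -0.26 to -0.172. The differences in total counts (-3220000 to 788000) and in detected genes (-187 to 12) changed sign, without library JM127 and without library JM128. The 4 named genes kept direction and call in 10 other settings each. The test against a fold of 1.5 was not among those settings, and the named genes were not checked in it. The named genes also kept direction and call with any library left out, except Nfu_g_1_023068. Its call was lost without each of 4 libraries (edgeR adjusted p up to 0.056). The comparison of the titles JM132 to JM136 ranged from 8163 to 9224 genes and the difference of comparisons from 6647 to 7629, and library totals gave 9145 and 9276; these alternatives, the contrasts of all libraries with library totals, those for library measures and the fit without the robust option were chosen after seeing the data. No paired analysis was possible because title numbers do not repeat across the groups. Depth limits genes under 1 CPM, whose median standard error was 0.38 against 0.15 at 10 to 100 CPM on the log2 scale.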
